A study of Mus musculus with 11 samples.

Results

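The 10 genes described here carry haem and iron through macrophages (macs): Slc48a1, Hmox1, Blvrb, Fth1, Ftl1, Slc40a1, Tfrc, Slc11a1, Spic and Bach1. They were chosen by name and read from all 11 single-cell count tables of the series, which list 27998 mouse genes each, and all 10 were present in every table. The study compared macs that keep or lose the transcription factor Zeb2 in 5 tissues: brain microglia, macs of the colon (CMs), liver Kupffer cells (KCs), alveolar macs of the lung (AMs) and macs of the spleen (SMs). WT libraries came from Zeb2fl/fl mice without a cre, and the labels give the Zeb2KO libraries of all 5 tissues as Fcgr1-crexZeb2fl/fl, a cre driven by the promoter of the Fc receptor CD64. The study's methods instead give a Clec4f-driven cre for the liver and Itgax-cre for the lung libraries, so that for these 2 tissues labels and methods differ and the driver is not settled here. All 3 drivers are also active in some cells other than macs, which for the Clec4f-driven cre are a few B cells, and per the study some macs of every tissue but the brain kept a Zeb2 allele. An 11th library held KCs of Nr1h3fl/fl mice without a cre, also WT. The mice were young adult C57BL/6 littermates, untreated, and the cells were sorted before capture. Each tissue and genotype is 1 library, so no difference between genotypes within a tissue has a replicate check, and no p-value is given for one.

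Macs clear aged red cells. Haemoglobin is degraded in the phagolysosome, and the transporter Slc48a1 (Hrg1) moves the released haem into the cytosol. There the enzyme Hmox1 opens the haem ring to give iron, carbon monoxide and biliverdin. Blvrb, biliverdin reductase B, is listed here with haem breakdown, as is the related reductase Blvra. The iron is stored in ferritin, a shell of the heavy chain Fth1 and the light chain Ftl1, or leaves the cell through Slc40a1 (ferroportin), the only known cellular iron exporter. Transferrin-bound iron enters through the receptor Tfrc, and Slc11a1 (Nramp1) pumps iron out of the phagosome. Spic is the transcription factor needed for red pulp macs of the spleen, and Bach1 is a haem-sensing repressor that holds Hmox1, ferritin and Slc40a1 genes down until haem binds it.

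Besides transcription, cells adjust this system through iron-responsive elements, short hairpins in the mRNA that iron regulatory proteins bind when iron is scarce. A hairpin in the 5′ UTR blocks translation, and hairpins in the 3′ UTR protect the mRNA, so that mRNA counts do not show the former kind of control. The search was for a C, 5 stem bases, a loop of CAGTG followed by A, C or T, and 5 bases that pair with the first 5 (G with T allowed), on the transcript strand of the GENCODE protein-coding transcripts. It found a match in 4 of the 10 genes, against 217 of 21875 genes, or 0.992%. The matches are shown because they are what Fth1, Ftl1, Slc40a1 and Tfrc share at the sequence level, in 5′ to 3′ order with the 6 loop bases in capitals.
Fth1 5′ UTR, chr19:9982733-9982759, plus strand: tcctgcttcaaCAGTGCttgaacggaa
Ftl1 5′ UTR, chr7:45459780-45459806, minus strand: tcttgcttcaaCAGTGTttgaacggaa
Slc40a1 5′ UTR, chr1:45925466-45925492, minus strand: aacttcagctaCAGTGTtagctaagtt
Tfrc 3′ UTR match 1, chr16:32631220-32631246, plus strand: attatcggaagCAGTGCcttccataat
Tfrc 3′ UTR match 2, chr16:32631599-32631625, plus strand: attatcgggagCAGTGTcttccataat
Tfrc 3′ UTR match 3, chr16:32631664-32631690, plus strand: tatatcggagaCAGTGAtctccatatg
Tfrc 3′ UTR match 4, chr16:32631711-32631737, plus strand: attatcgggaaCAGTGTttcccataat
Both ferritin chains and the exporter held 1 match upstream of the coding sequence, and Tfrc held 4 downstream of it. The search found no match in the transcripts of the other 6 genes. In mm10 the remaining genes lie at chr8:75093621-75100589 (Hmox1), chr10:88674772-88685015 (Spic), chr1:74375195-74386062 (Slc11a1), chr7:27447978-27466144 (Blvrb), chr15:97778520-97792692 (Slc48a1) and chr16:87698945-87733346 (Bach1). The letters TGACNNNGC, which Bach1 and its partners recognise, were searched on both strands of the 300 bases around the start site and found in none of the 7 genes with a RefSeq promoter (GRCm38.p6), where 12.4% of all promoters hold them. Sites outside these 300 bases were not searched, and at that share none of 7 says little. The search therefore does not show that these genes lack Bach1 sites.

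After filters, between 2830 (WT microglia) and 6974 (WT AMs) cells per library were kept as macs. The summed counts of these cells were 8172448 to 43271302 unique molecular identifiers (UMIs) per library, with medians per cell of 2220.5 for WT SMs and 9208.5 for WT CMs at the extremes. Levels are counts of the summed macs scaled to 1000000 UMIs (CPM), and their 95% Poisson intervals cover counting error only, from 0.183% to 13.3% of the level for genes at 20 CPM or more. In each library all 5 markers of its own mac type were above 20 CPM, Spic being one of those of SMs, and of 9 markers common to macs 6 passed that level in WT AMs and all 9 elsewhere. The 3′ counts of Zeb2 cannot check the deletion, since the deleted allele still gives a truncated mRNA with that end, and Zeb2 was higher in the Zeb2KO library of every tissue, from 475 against 1747 CPM in microglia to 731 against 889.8 CPM in SMs. Pairs of libraries shared at most 1.45% of the smaller library's cell barcodes. Fth1 and Ftl1 have near-identical processed copies in the mouse genome, and how reads were split between copies is not known here, so that their levels are less certain than those of the other genes.

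Hmox1, Blvrb and the transporter Slc48a1 differed in their order of tissues, with SMs first for Hmox1 and Slc48a1 and KCs first for Blvrb. Hmox1 stood at 11521 CPM in WT and 10478 CPM in Zeb2KO SMs. KCs held 1077 CPM in WT, 752 CPM in Zeb2KO and 1091 CPM in the Nr1h3fl/fl library. Microglia had 765 CPM in WT and 378 CPM in Zeb2KO, CMs 477 and 487 CPM, and AMs 114 and 167 CPM. SMs were therefore above every other library and AMs below, while KCs overlapped microglia and microglia overlapped CMs. Slc48a1, the haem transporter of the phagolysosome, had the same first and second place, with 398 and 400.2 CPM in WT and Zeb2KO SMs and 178, 153 and 145 CPM in the WT, Zeb2KO and Nr1h3fl/fl KCs. It reached 110.0 CPM in WT AMs and 36.8 CPM in Zeb2KO AMs, a range that spans the 55.5 and 52.4 CPM of CMs, and microglia were lowest at 34.4 and 33.7 CPM. Blvrb followed another order, with KCs first at 981, 1089 and 803 CPM, CMs second at 655 and 710 CPM, and SMs next at 476 and 605 CPM. AMs with 70.1 and 147 CPM and microglia with 79.3 and 90.7 CPM overlapped.

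Ferritin mRNA was abundant in all macs, without the gap that set SMs apart for Hmox1. Ftl1, the light chain, was at 18409.7 CPM in WT, 18342 CPM in Zeb2KO and 14431 CPM in Nr1h3fl/fl KCs, and at 15386 and 19881 CPM in WT and Zeb2KO AMs, which overlapped KCs. SMs with 10637 and 15326 CPM overlapped CMs with 12334 and 11494 CPM, and microglia were lowest with 6264 and 6116 CPM. Fth1, the heavy chain that oxidises iron, was highest in AMs, at 13111 CPM in WT and 30764 CPM in Zeb2KO. It stood at 11919 and 12839.9 CPM in CMs, 7747 and 9974 CPM in SMs, 7719, 6767 and 7923 CPM in the 3 KC libraries and 3452 and 5558 CPM in microglia. Of its 5 tissue ranges over WT and Zeb2KO, none overlapped the next, but the Nr1h3fl/fl KCs lay within the SM range.

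The exporter and the importers were distributed unequally. Slc40a1 reached 4877 and 5328 CPM in WT and Zeb2KO SMs and 2148, 2007 and 2806 CPM in WT, Zeb2KO and Nr1h3fl/fl KCs. Microglia had 129 and 69.7 CPM, a range that took in the 87.7 and 94.8 CPM of CMs. In AMs Slc40a1 was close to absent at 1.89 and 2.36 CPM, from 52 and 88 UMIs. AMs therefore combined the highest Fth1 with the lowest Slc40a1. Slc11a1, the phagosomal iron pump, showed a similar gap: it was at 374, 401 and 244 CPM in the 3 KC libraries, 273 and 363 CPM in SMs, 222 and 229 CPM in microglia and 171 and 151 CPM in CMs, but 0.36 CPM in WT AMs, from 10 UMIs, and 4.21 CPM in Zeb2KO AMs. Tfrc was low throughout. The KC libraries held 23.7, 14.6 and 30.9 CPM and SMs 27.7 and 12.1 CPM, with overlapping ranges, and CMs, AMs and microglia stayed between 3.25 and 9.80 CPM.

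The regulator Spic had the most restricted pattern of the 10. It was at 1626 CPM in WT and 1358 CPM in Zeb2KO SMs. The KC libraries held 92.8, 109 and 111 CPM and CMs 29.8 and 33.5 CPM. Microglia had 1 UMI in WT and 8 UMIs in Zeb2KO, and AMs 1 UMI and 11 UMIs, and a count of 0 in WT AMs would have allowed up to 0.11 CPM. Bach1 was the most even. It ranged from 28.5 CPM in WT KCs to 84.3 CPM in WT AMs, and the 60.7 CPM of Zeb2KO AMs, 51.8 and 61.5 CPM of CMs, 38.3 and 66.8 CPM of SMs and 49.3 and 41.2 CPM of microglia formed a chain of overlapping ranges. KCs were lowest for Bach1, with 29.8 CPM in Zeb2KO and 46.1 CPM in the Nr1h3fl/fl library, which lies within the microglial range.

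**Figure D1:**
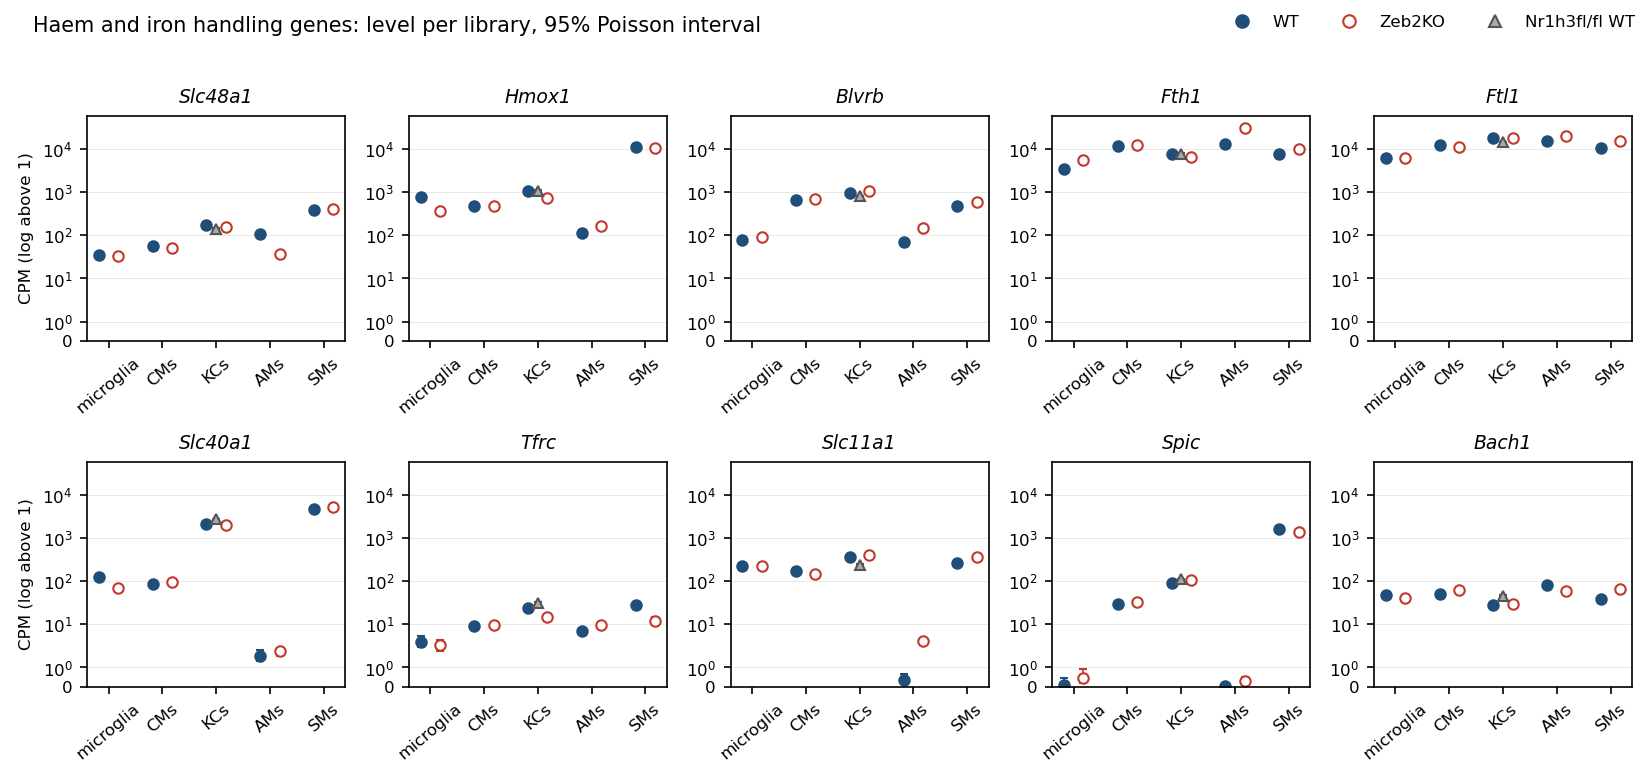
Level of each gene (y axis, CPM, logarithmic above 1 CPM) in the macs of each tissue (x axis), with WT as filled circles, Zeb2KO as open circles, the Nr1h3fl/fl WT library as triangles and bars for 95% Poisson intervals. Hmox1, Slc40a1 and Spic were highest in both SM libraries, where Hmox1 reached 11521 and 10478 CPM, and Slc40a1, Slc11a1 and Spic were near 0 in AMs.

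Differences among tissues were tested with the WT and Zeb2KO library of each tissue as its 2 values, by edgeR's quasi-likelihood test with Benjamini-Hochberg adjustment over 12148 genes. All 10 genes differed among the 5 tissues, with adjusted p from 1.18e-04 for Slc40a1 to 0.0164 for Bach1, which lost the call (adjusted p = 0.0863 by edgeR) with the Nr1h3fl/fl library in place of the Zeb2fl/fl WT KCs. Since 82.2% of all genes passed this test, the count says little about these 10. KCs and AMs were sequenced on a NextSeq and the other macs on a HiSeq, and sort gates differed among tissues, which cannot be told apart from tissue.

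Further contrasts then set the iron-recycling tissues against brain, colon and lung. In SMs, 7 of the 10 genes were higher and none was lower, where 27.4% of all genes were higher and 25.1% lower, 52.6% in all. Log2 differences were 7.31 ± 0.26 (SE) for Slc40a1 (adjusted p = 3.02e-05), 4.75 ± 0.31 for Hmox1 (adjusted p = 1.83e-04) and 2.75 ± 0.25 for Slc48a1 (adjusted p = 5.06e-04) by edgeR. Slc11a1, Blvrb and Tfrc followed with 2.59, 1.29 and 1.26. For Spic the fitted 10.04 depends on microglia and AMs near 0 and is no bound. Fth1 (log2 difference -0.52, adjusted p = 0.27), Ftl1 (-0.03, adjusted p = 0.93) and Bach1 (-0.39, adjusted p = 0.171) did not pass. In KCs, 7 genes were higher, where 16.5% of all genes were, and Bach1 was lower, where 11.9% were, 28.4% in all. The log2 differences of KCs were 6.29 ± 0.25 for Slc40a1 (adjusted p = 9.61e-05), 3.19 for Slc11a1, 2.52 ± 0.24 for Blvrb (adjusted p = 9.31e-04), 1.75 for Slc48a1, 1.53 for Tfrc, 1.44 ± 0.31 for Hmox1 (adjusted p = 0.0168) and -0.94 ± 0.22 for Bach1 (adjusted p = 0.022). Spic was the other gene higher in KCs, and its fitted 6.41 also depends on microglia and AMs near 0. Ftl1 stood at 0.77 (adjusted p = 0.0544). Bach1 was at 28.5 and 29.8 CPM in the WT and Zeb2KO KCs fitted here, but at 46.1 CPM in the Nr1h3fl/fl KCs. This contrast was not refitted with the latter library. The contrasts of SMs and of KCs share the brain, colon and lung libraries. Some of these differences changed with the tissues compared. Against brain and colon only, all 3 on the HiSeq, Slc11a1 in SMs was at 0.44 (adjusted p = 0.589), while Slc40a1 was at 5.50 and Hmox1 at 4.15 with adjusted p = 1.46e-04 and 4.63e-04. For KCs no contrast without AMs was fitted. The mean log2 level of Slc11a1 was 8.60 in KCs, 7.82 in microglia and 7.34 in CMs but 1.41 in AMs. That of Hmox1 was 9.82, 9.07, 8.92 and 7.12 in the same order, and that of Slc40a1 11.02, 6.58, 6.53 and 1.64. Low levels in AMs therefore enlarge the differences of Slc11a1, Hmox1 and Slc40a1. For Blvrb the means were 10.01, 6.42, 9.42 and 6.68, so that its difference rests mainly on microglia and AMs. Against AMs only, both on the NextSeq, KCs had Tfrc at 1.14 (adjusted p = 0.0789) and Fth1 at -1.50 (adjusted p = 0.0381).

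RNA of red cells moved with part of this pattern. The 4 haemoglobin genes summed to 1604 and 1789 CPM in WT and Zeb2KO SMs, the tissue with most Hmox1, after a cluster of erythroid cells had been left out, and to 1438 and 1187 CPM without a further cluster led by B cell genes. They summed to 606 and 39.9 CPM in microglia, 214, 5.66 and 77.3 CPM in WT, Zeb2KO and Nr1h3fl/fl KCs, 41.8 and 4.21 CPM in CMs and 9.87 and 1.66 CPM in AMs. Of the 8 erythroid markers, 4 were above 20 CPM in both SM libraries, in WT microglia and in WT KCs, these being the haemoglobin genes, and Car1 and Slc4a1 were at 0 in WT microglia and WT KCs. The part of red cell RNA in the levels of Hmox1 was not tested.

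Genes whose level across the 11 libraries was most like that of a member were looked up among 4966 genes above 50 CPM in a library, as a description. For Spic these were Slc30a1, a zinc exporter (Pearson r = 0.99), Aspa (0.99) and Serpina3g (0.98). For Hmox1 they were Gtf2ird1 (0.98), Armc8 and Arrdc3 (both 0.97), and for Slc40a1 the GTPase Irgm2, Epb41l3 (both 0.99) and Agpat3 (0.97). Armc8, for example, was at 393 CPM in WT SMs, 102 CPM in WT KCs and at most 48.2 CPM outside the spleen and liver. Among the members themselves Hmox1, Slc40a1 and Spic had r of 0.86 to 0.87 with each other, Fth1 and Slc40a1 had r of -0.50, and Bach1 and Slc11a1 had r of -0.67, over 11 libraries that fall into 5 tissues.

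The comparison of Zeb2KO with WT asked whether these genes follow Zeb2. Over the 5 tissues none of the 10 passed edgeR's quasi-likelihood test with tissue as the block: adjusted p ran from 0.467 for Blvrb to 0.946 for Slc40a1. None had an unadjusted p under 0.05 either, and DESeq2 called none of them. Across all genes edgeR called 0 (0%) of 12148 and DESeq2 called 360 (2.96%), while 1450 genes (11.9%) had an unadjusted p under 0.05 by edgeR. Blvrb, with a log2 difference of 0.43 ± 0.21, was higher in the Zeb2KO library of all 5 tissues, and with 5 tissues an exact two-sided sign test cannot go below 0.0625, its value here. Fth1 stood at 0.49 ± 0.28, Slc48a1 at -0.32 ± 0.21, Hmox1 at -0.16 ± 0.26 and Slc40a1 at -0.04 ± 0.21.

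Within a tissue, a gene was counted where its log2 ratio of Zeb2KO to WT, with 1 CPM added to each, was at least 1 in size and either library had 20 CPM. As a measure of what 2 WT libraries can differ by, the pair of WT KC libraries, Nr1h3fl/fl over Zeb2fl/fl, put none of the 10 genes past this fold, where 1.33% of all genes were, and their widest ratio was 0.67, for Bach1. This pair is 1 tissue and says nothing of spread in the others, and its ratios were higher for longer transcripts (Spearman's rho = 0.54 across genes, which are not independent).

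AMs had the most members past the fold, 3 of the 6 that could be considered, where 11.7% of all genes were. Of these 2 were higher, against 4.35% of all genes, and 1 lower, against 7.33%. Fth1 went from 13111 to 30764 CPM (log2 ratio 1.23), Blvrb from 70.1 to 147 CPM (1.06) and Slc48a1 from 110.0 to 36.8 CPM (-1.55). Of the 5 considered genes of iron storage, Fth1 was the 1 past the fold, and the median of the group was -0.50. Ftl1 was at 0.37, Hmox1 at 0.54 and Bach1 at -0.47. The lung pair is sensitive to scaling, since the median of all genes was -0.31. TMM factors shifted ratios by 0.26 and turned the split of all calls from 253 higher and 426 lower to 366 higher and 198 lower, but these 3 genes were past the fold under both. Blvrb was inside it after adjustment for transcript length, at 0.96, and without a cluster of 1.26% of the Zeb2KO cells, at 0.98. Neutrophil-associated genes moved with the lung pair, although the lung cells were sorted as CD11c+ SiglecF+ F4/80+ CD64+ cells, a gate that would remove neutrophils. S100a8 went from 22.9 to 14194 CPM, and the 6 neutrophil markers summed to 22.9 CPM in WT and 23555 CPM in Zeb2KO AMs, where 1 and 2 of them were above 20 CPM and Camp and Ngp were at 0 in both libraries. Other markers moved too. The 7 epithelial markers summed to 703 CPM in WT and 1263 CPM in Zeb2KO AMs, with 5 and 7 of them above 20 CPM. Chil3, a marker of AMs, went from 5761 to 20630 CPM. The part of all these genes in the ferritin result was not tested. The median UMIs per cell were 3587 in WT and 5682 in Zeb2KO AMs.

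In microglia 1 of 8 members, Hmox1, was past the fold, where 8.34% of all genes were. Its 765 CPM in WT and 378 CPM in Zeb2KO gave a log2 ratio of -1.02, which lies at the threshold and fell inside it with TMM factors (-0.94). Slc40a1 was at -0.88 and Fth1 at 0.69, both inside the fold. The haemoglobin genes were at 606 and 39.9 CPM and the heat shock gene Hspa1a at 4859 and 3186 CPM in these libraries, and their part in the result was not tested.

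Among SMs 1 of 10 was past the fold, where 3.19% of all genes were. Tfrc went from 27.7 to 12.1 CPM (-1.13), from 226 and 116 UMIs, and reached 20 CPM in WT alone. Hmox1 (-0.14), Slc40a1 (0.13), Slc48a1 (0.01) and Spic (-0.26) were all below the fold. Bach1 was at 0.79, Ftl1 at 0.53, Slc11a1 at 0.41, Fth1 at 0.36 and Blvrb at 0.35. The erythroid cluster that was left out held 414 CPM of Tfrc in WT but 2.51 CPM, from 1 UMI, in Zeb2KO, and with all barcodes kept the ratio of Tfrc was -1.86. Haemoglobin in the macs themselves was at 1604 and 1789 CPM, but at 1438 and 1187 CPM without a cluster led by the B cell genes Fcer2a and Pax5, where the ratio of Tfrc was -1.18. The part of erythroid RNA in the Tfrc result was not tested.

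KCs and CMs had no member past the fold, of 10 and 9 considered, where 4.53% and 1.56% of all genes were. In KCs Tfrc was at -0.66 and Hmox1 at -0.52, and the others lay between -0.22 and 0.23. With the Nr1h3fl/fl KCs as the control, Tfrc reached -1.03 and so passed, where 8.11% of all genes did, and Slc11a1 and Bach1 moved to 0.72 and -0.61. Hmox1 stayed at -0.54, while haemoglobin was at 214 and 77.3 CPM in the 2 WT libraries and 5.66 CPM in Zeb2KO. In CMs the ratios of all 9 lay between -0.18 and 0.24. CMs also had the fewest cells in clusters made up almost entirely of Zeb2KO cells.

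**Figure D2:**
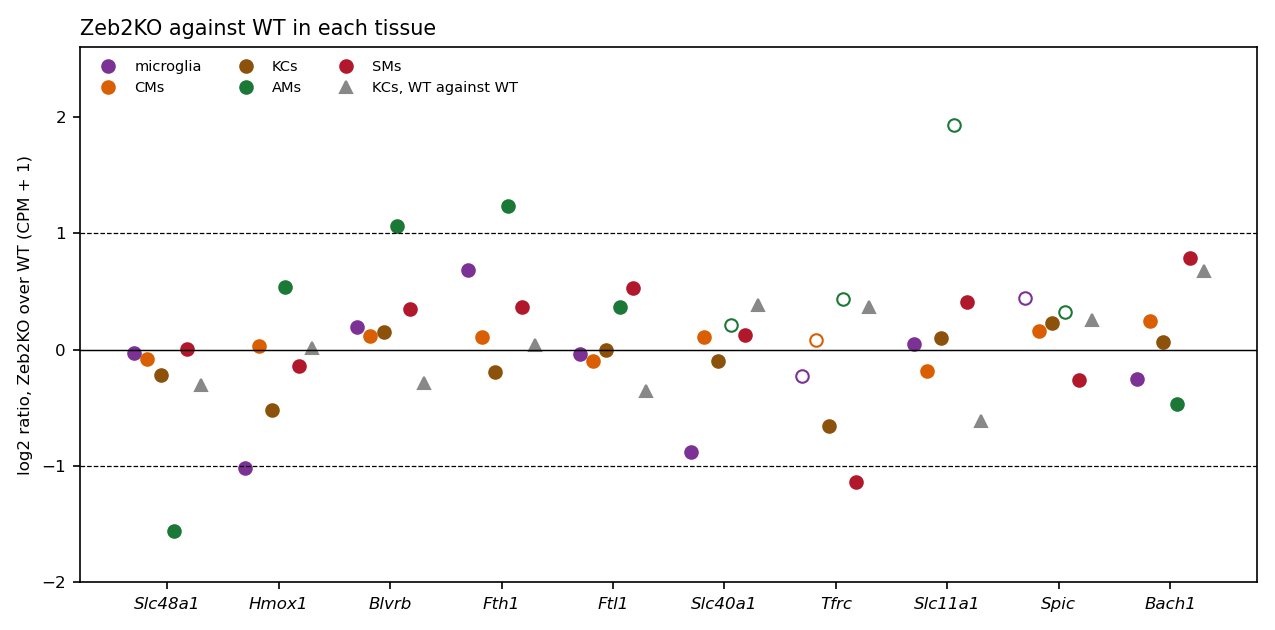
Log2 ratio of Zeb2KO to WT (y axis, CPM with 1 added) for each gene (x axis), with one circle per tissue, open where neither library reached 20 CPM, and triangles for the Nr1h3fl/fl against the Zeb2fl/fl WT KCs; dashed lines mark a 2-fold difference. Fth1 and Blvrb in AMs lie above the upper line, and Slc48a1 in AMs, Tfrc in SMs and Hmox1 in microglia below the lower one. Slc11a1 in AMs, at 1.93, is also above the upper line, but as an open circle.

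Zeb2KO libraries are mixtures, so levels were also read by cluster. Clusters were made without the haem and iron genes, which may still stand among the leading genes of a cluster, and those whose share of Zeb2KO cells was at least 9 times their share of WT cells are called apart. They held 99.4% of Zeb2KO microglia, 21.8% of CMs, 63.0% of KCs, 90.0% of AMs and 75.3% of SMs. Cluster values are descriptions, as cells of 1 library are no replicates.

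In AMs Fth1 was at 30972 CPM in the apart cells and 28807 CPM in the other 627 Zeb2KO cells, against 13100 CPM in the WT cells that were not apart. A cluster with 79 Zeb2KO cells, led by heat shock genes, carried much of the second value, and without it the other Zeb2KO cells were at 20351 CPM and the WT cells at 12969 CPM. The 627 cells were unlike WT in other genes too, with S100a8 at 6979 CPM and Krt8 at 146 CPM, against 22.7 and 0.26 CPM in those WT cells. Of them, 306 lay in a cluster of mostly dividing cells, with 8733 CPM of S100a8. Lying outside the apart clusters therefore does not show that a cell kept Zeb2, which was not tested. The large apart cluster of 3341 cells, led by Auts2 and Cd177, had 33995 CPM of Fth1, 22.6 CPM of Slc48a1 and 19689 CPM of S100a8. It met the marker threshold for other cell types and was kept only for its size. Its part in the lung ratios was not tested. Another apart cluster, of 1683 cells with 651 CPM of S100a8, had 19136 CPM of Fth1 and 65.0 CPM of Slc48a1. Hmox1 was at 109 CPM in apart cells, close to the 114 CPM of WT. The cluster with 79 Zeb2KO cells also held 40 WT cells. Over both genotypes Hspa1b, Hspa1a and Hmox1 were its first leading genes, followed by Slc11a1 and the cystine transporter Slc7a11. Its WT cells held 0 UMIs of Hspa1b and 0 CPM of Hspa1a, so that these heat shock genes mark its Zeb2KO cells only. Slc7a11, Gclm and Srxn1, listed as oxidative stress genes, were at 351, 351 and 234 CPM in its WT cells, against 31.4, 59.9 and 23.2 CPM in other WT AMs. In its Zeb2KO cells they were at 926, 709 and 212 CPM, against 51.2, 64.7 and 23.4 CPM in other Zeb2KO AMs. In this cluster Hmox1 reached 1999 CPM in WT and 4442 CPM in Zeb2KO, Fth1 37538 and 81654 CPM, Ftl1 45773 and 72186 CPM, and Blvrb 296 and 922 CPM. These 1.26% of Zeb2KO AMs held 35.4% of all Hmox1 UMIs of their library, and without the cluster Hmox1 was at 104 CPM in WT and 109 CPM in Zeb2KO AMs. Without it Fth1 was at 12981 and 30079 CPM (log2 ratio 1.21) and Slc48a1 at -1.67, but Blvrb, at 68.9 and 137 CPM (0.98), was inside the fold.

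Hmox1 also varied among microglia of 1 genotype. WT microglia fell into a cluster of 1417 cells with 131 CPM and one of 1311 cells with 1310.1 CPM, and Ftl1 stood at 3309.6 and 8624 CPM in the same clusters. The second was led by haemoglobin genes and held 7488 CPM of Hspa1a against 1996 CPM in the first. Among Zeb2KO microglia the 3 large clusters had 659, 74.5 and 368 CPM of Hmox1 and 4899, 1166 and 3290.2 CPM of Hspa1a, with the haemoglobin gene Hba-a1 at 4.87 to 6.59 CPM. Hmox1 and Hspa1a therefore had the same order among the large clusters of each genotype, and the part of Hspa1a and of haemoglobin in the Hmox1 result was not tested. Slc40a1 differed little among the large WT clusters, 133 and 130.5 CPM, and was between 53.1 and 87.9 CPM in the 3 of Zeb2KO.

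Zeb2KO SMs split for Hmox1. The larger apart cluster, 1550 cells led by Nfasc and Cdkn2a, had 13882.5 CPM of Hmox1, 6321 CPM of Slc40a1 and 1599.8 CPM of Spic. The other held 692 Zeb2KO and 7 WT cells, and its leading genes over both genotypes were S100a8, S100a9 and Camp. Its Zeb2KO cells had 474 CPM of S100a8, 3635 CPM of Hmox1, 3828 CPM of Slc40a1 and 1118 CPM of Spic. All WT cells of apart clusters held S100a8 at 10640 CPM, but those of the larger cluster at 8.64 CPM. The 7 WT cells therefore weigh heavily on these leading genes. The large WT clusters held 12125 and 12489.6 CPM of Hmox1. The 45 WT cells in the larger apart cluster held 18292 CPM, above its Zeb2KO cells, and the 77 and 106 Zeb2KO cells in the large WT clusters held 14665 and 15796 CPM. Tfrc was at 12.8 and 7.94 CPM in the apart clusters, and in the clusters that hold most WT cells it was at 5.86 and 5.32 CPM in the Zeb2KO cells, from 1 UMI each, against 30.1 and 23.8 CPM in WT.

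In KCs the apart clusters differed as well. The apart cluster of 1882 cells, led by Siglecf, had 528 CPM of Hmox1 and 10.2 CPM of Tfrc, and that of 476 cells, led by Meg3 and with Cdkn1a and Hmox1 itself among its leading genes, had 1739 CPM of Hmox1 and 21.1 CPM of Tfrc. The main WT cluster of 2388 cells stood at 1077 and 22.5 CPM. Slc40a1 was at 2072, 2604 and 2299 CPM in these clusters, against 2148 and 2806 CPM in the WT libraries. A further apart cluster, 99 cells led by Pglyrp1, had 516 CPM of Hmox1, 2.36 CPM of Tfrc and 1586 CPM of Slc40a1. Summed, the apart cells held 743 CPM of Hmox1 and the other 1442 Zeb2KO cells 763 CPM, against 1068 CPM in WT cells not apart. Lower Hmox1 was therefore not particular to the apart clusters. Tfrc was at 11.9, 18.4 and 23.6 CPM in the same order. The Zeb2fl/fl WT KCs also varied in Hmox1, from 767 to 1407 CPM among their mac clusters of 67 cells or more, with 1 exception. That cluster, 85 WT cells at 132 CPM, was led by Alox15 and Prg4. It had 215 CPM of Slc40a1 and 11.3 CPM of Spic, and whether its cells are KCs was not tested. In CMs the apart cluster of 725 cells, led by Hp, had 302 CPM of Blvrb and 22.1 CPM of Slc40a1, where the 3035 Zeb2KO cells outside the apart clusters had 801 and 112 CPM, and 17965 against 11698 CPM of Fth1. The other apart cluster, 123 cells led by Iigp1 and Cxcl9, was close to the latter, with 877 CPM of Blvrb, 96.7 CPM of Slc40a1 and 10476.5 CPM of Fth1. WT CMs also varied among their own clusters, from 17.2 to 171 CPM for Slc40a1 in the clusters of 112 cells or more. In the same clusters Blvrb ran from 338 to 1148 CPM and Fth1 from 8627 to 14814 CPM. The study compared its Zeb2-deficient CMs with Cd74-high WT CMs only, which was not done here.

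**Figure D3:**
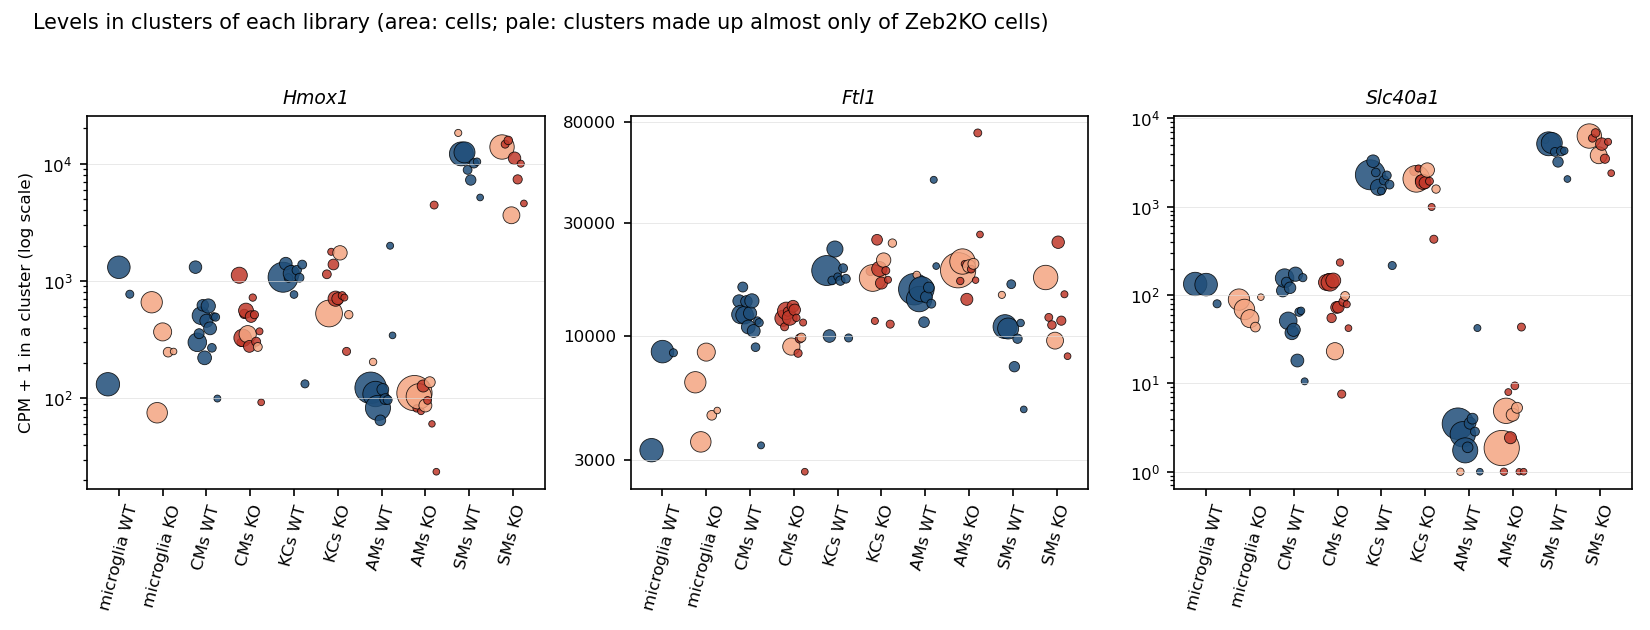
Levels of Hmox1, Ftl1 and Slc40a1 (y axis, CPM with 1 added, log scale) in each mac cluster of each library (x axis), with circle area for the number of cells and pale circles for apart clusters. The 2 large WT microglial clusters lie at 131 and 1310.1 CPM of Hmox1, and the small AM clusters with 1999 and 4442 CPM stand above all other AM clusters.

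Cell by cell, Spic was found in 91.6% of WT and 91.0% of Zeb2KO SMs (exact 95% intervals 90.6% to 92.5% and 89.9% to 92.0%), in 35.4% and 38.6% of KCs and in 17.7% and 19.2% of CMs. Cells of other types held such UMIs too, and whether these came from free RNA or from doublets was not tested. T and NK cells captured with WT SMs, which should lack Spic, held a UMI of it in 38.5% of 91 cells, at 341 CPM, with a median of 2370.0 UMIs per cell against 2220.5 UMIs in WT SMs. Endothelial cells of the WT and Zeb2KO liver libraries held one in 31.2% of cells each (exact 95% intervals 22.7% to 40.8% and 26.6% to 36.2%), at 67.4 and 65.4 CPM against 92.8 and 109 CPM in KCs, with medians of 6909 and 6934.5 UMIs against 5369 and 5869 UMIs. Unthinned, KCs were thus at or above the endothelial cells, and above the B cells of the same libraries, which held Spic in 19.6% and 21.6% of cells at 61.9 and 58.9 CPM. Cells of the Nr1h3fl/fl library in a cluster left out for hepatocyte markers, with 40.3%, held it about as often as its KCs, with 36.2%. The common mac markers of that cluster had a mean log2 ratio of -0.02 to all other liver cells. Its cells therefore cannot stand for hepatocytes alone. With each cell thinned to 1000 UMIs, Spic was found in 8.68% of WT KCs, below the 9.17% of WT endothelial cells, and in 6.29% of WT B cells. In the Zeb2KO liver library these shares were 10.6%, 4.76% and 3.73%. These liver cells also carried other KC RNA, so that they give no clean background and the part of such RNA in Spic of KCs was not tested. In SMs the share was above that of T and NK cells, but erythroid cells of the WT and Zeb2KO spleen libraries held Spic in 83.4% and 78.7% of cells, at 913 and 699 CPM, so that cells of other types differed widely among themselves. The erythroid cluster also held more of other mac RNA. Its common mac markers had a mean log2 ratio of -0.56 to all other spleen cells, against -2.65 and -1.94 in the T and NK clusters. The part of such RNA in its Spic was not tested. Fibroblasts of the colon libraries held Spic in 5.19% and 7.81% of cells, below CMs. With each cell thinned to 1000 UMIs, which left out 268 shallower WT SMs, Spic was found in 76.8% of WT and 70.5% of Zeb2KO SMs and in 21.1% of the T and NK cells, with 60.5% and 50.7% of the erythroid cells. Slc40a1, unthinned in 99.1% of SMs of either genotype, was then found in 97.3% and 96.9% of SMs, against 84.5% and 83.5% for KCs, 12.7% and 6.51% for microglia, 8.61% and 8.32% for CMs and 0.258% and 0.272% for AMs. It too was found in other cells, thinned in 33.3% of the T and NK cells at 629 CPM, in 86.4% and 81.3% of the WT and Zeb2KO erythroid cells at 3137 and 3089 CPM, and in 62.4% and 64.3% of the liver endothelial cells at 1528 and 1304 CPM, below SMs and KCs respectively. In the Nr1h3fl/fl library the cluster with hepatocyte markers, which also held mac RNA, had Slc40a1 in 88.7% of cells at 2995.5 CPM. The KCs of that library had it in 90.6% at 2806 CPM. Fibroblasts of the colon, with 2.96% and 5.47% at 64.3 and 65.9 CPM, were below CMs.

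Of 68 further genes of haem and iron handling, listed with the 10 by role, 66 were in the tables and 51 reached 20 CPM in a tissue. The edgeR test over tissues called 53 of the 57 that could be tested, against the 82.2% of all genes. In the contrast of SMs 21 were higher and 13 lower, where 27.4% and 25.1% of all genes were. In that of KCs 12 were higher and 11 lower, where 16.5% and 11.9% were. Between genotypes edgeR called none and DESeq2 called 6 of 57, where it called 2.96% of all genes. Within tissues 12 were past the fold somewhere, 3 in each tissue. These were 3 of 38 considered in the brain (8.34% of all genes), 3 of 34 in the colon (1.56%), 3 of 30 in the liver (4.53%), 3 of 38 in the lung (11.7%) and 3 of 39 in the spleen (3.19%).

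Among genes of haem uptake, Cd163, the receptor for haemoglobin bound to haptoglobin, went from 385 to 25.9 CPM in SMs (log2 ratio -3.84), from 329 to 53.5 CPM in KCs (-2.60) and from 81.6 to 27.8 CPM in CMs (-1.52), and was at 481 CPM in the Nr1h3fl/fl KCs. Haptoglobin itself, Hp, went from 0.855 to 26.4 CPM in CMs (3.89). Abcg2, a haem exporter, was lower in Zeb2KO microglia (48.4 to 15.2 CPM, -1.61), as was Hfe, which acts with transferrin receptors (167 to 59.0 CPM, -1.49). In AMs Trf, the gene of transferrin, went from 561 to 1490.5 CPM (1.41) and the iron and zinc importer Slc39a14 from 40.5 to 16.6 CPM (-1.23). Lcn2, a siderophore-binding protein also made by neutrophils, went from 0.073 to 75.2 CPM in AMs (6.15) and from 1.41 to 51.7 CPM in CMs (4.45), with S100a8 at 14194 CPM in Zeb2KO AMs and 2.79 CPM in Zeb2KO CMs.

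The others past the fold were partners of Bach1, a mitochondrial carrier and genes of the oxidative stress response. The small Maf genes, whose proteins pair with Bach1 and Nfe2l2, passed the fold in 2 cases, Maff in microglia (9.40 to 47.4 CPM, 2.22) and Mafg in KCs (48.8 to 112 CPM, 1.18). Mafk passed in no tissue, and in AMs Mafk and Mafg were at -0.12 and -0.09. The mitochondrial glycine carrier Slc25a38, needed for haem synthesis, went from 10.3 to 24.6 CPM in KCs (1.18). In SMs the cystine transporter Slc7a11 went from 3.67 to 25.7 CPM (2.51) and the sulfiredoxin Srxn1 from 9.05 to 22.9 CPM (1.25). Slc7a11 and Srxn1, and likewise Maff, Slc25a38, Hp and Lcn2 where they passed, reached 20 CPM in the Zeb2KO library alone, and Abcg2 and Slc39a14 in the WT library alone, so that each was considered through the library where it was higher. Of the 8 listed genes of the oxidative stress response, 7 were considered in SMs. For Slc7a11 and Srxn1 among them a ratio above 0 was fixed in advance by the filter. The others were inside the fold, with Txnrd1 at 0.94, Prdx1 at 0.80, Gclm at 0.755, Gclc at 0.27 and Gsr at 0.17. The median of the 7, with Slc7a11 and Srxn1 counted, was 0.80, where that of all genes was -0.02. The share of all genes with a ratio above 0 was not counted. Hmox1, which shares control with these genes, was at -0.14 in SMs.

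**Figure D4:**
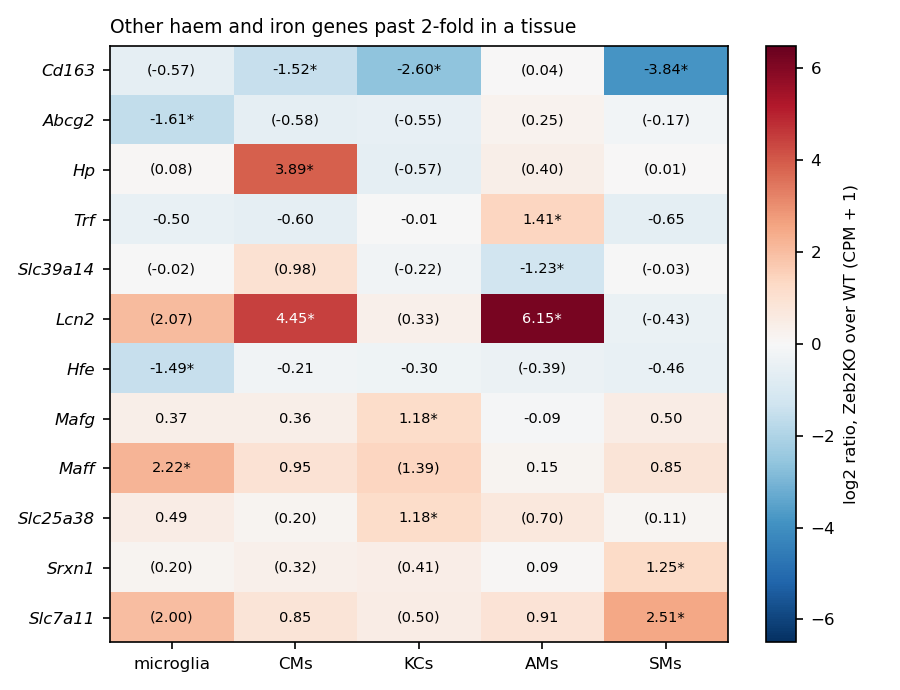
Log2 ratio of Zeb2KO to WT (colour and printed value, CPM with 1 added) of the 12 further haem and iron genes past 2-fold in at least 1 tissue (rows) in each tissue (columns), with stars on ratios past the fold and brackets where neither library reached 20 CPM. Cd163 was lower in CMs, KCs and SMs, and Lcn2 was highest in AMs at 6.15.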

How the data were processed

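Cells were captured on the 10x Genomics platform. Per the labels and the study's methods, the authors aligned reads to mm10 with Cell Ranger and deposited one table of raw UMI counts per library, genes by cells. The deposited counts are not normalized. The 10 genes and the lists of related genes and markers were chosen with earlier results of these data known. Barcodes beyond 3 median absolute deviations in UMIs, genes or mitochondrial share were removed (4.66% to 9.22% per library). Cells were clustered per tissue (scanpy, Leiden resolution 0.8, 2000 variable genes without haem and iron genes). Clusters that met a threshold on listed markers of other cell types were left out (0% to 22.3%). A cluster with at least 25% of the filtered cells of a library was kept in any case. In lung this kept a cluster that met the threshold, with 53.2% of the filtered Zeb2KO cells. In colon, liver and spleen 1 cluster each, led by genes of other cell types, did not meet the threshold and stayed in. No doublet caller was run. Counts of the macs were summed per library. edgeR 4.0.16 fitted tissue and genotype over 10 libraries, and DESeq2 1.42.0 was an alternative. The methods were tested on simulated data. Named genes were the 10, listed genes past the fold in a tissue, and the 3 genes most like Spic, Hmox1 and Slc40a1. Where the labels do not say how many mice a library pooled, p-values measure the spread between libraries only. Other alternatives were other floors, scalings, cell sets and controls.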

Additional observations from a re-analysis of the deposited data

How the results depend on the processing

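With 1 library per tissue and genotype, ratios within a tissue had no test, and depth limited Spic, Slc11a1 and Slc40a1 in AMs and Tfrc in microglia, which rest on 1 to 157 UMIs. The number of the 10 genes past 2-fold went from 1 to 0 in microglia with TMM factors, without the 5% of cells with most UMIs and after adjustment for transcript length, from 3 to 2 in AMs after that adjustment (Blvrb at 0.96), from 1 to 0 in SMs with a floor of 50 CPM, and from 0 to 1 in KCs with the Nr1h3fl/fl control. Over 10 alternatives the ratio of Hmox1 in microglia ranged from -1.02 to -0.91, that of Fth1 in AMs from 1.23 to 1.5, of Blvrb from 0.96 to 1.32, of Slc48a1 from -1.58 to -1.28, and of Tfrc in SMs from -1.86 to -1.05. In the genotype fit, tissue was the block; without it (no pairing of the libraries of a tissue) Slc40a1 was at 0.038 and Spic at -0.20, with no gene called by edgeR in either fit. Across all genes that fit called 0, against 360 with DESeq2, 3 with no filter on low counts and 1 without dividing cells. Leaving out 1 tissue pair at a time left 0 of the 10 called in each case, 0 to 1 of all genes, with ranges of -0.41 to 0.025 for Hmox1 and -0.18 to 0.15 for Slc40a1, both highest without the brain pair, and -0.034 to 0.21 for Bach1, lowest without the spleen pair. In SMs against brain, colon and lung Ftl1, which had not passed, went to 0.0090 when 3 clusters led by genes of other cell types were also left out and to 0.32 against brain and colon only. Ftl1 in KCs passed with DESeq2 (0.78, adjusted p = 0.00293), and Bach1 lost the tissue call with the Nr1h3fl/fl library (adjusted p = 0.0863). The contrasts within 1 instrument, without the 3 clusters and without the small AM cluster (Blvrb at 0.98) were chosen after seeing the data. The causes were not tested.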
